A study of Mus musculus with 13 samples.

Results

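The endothelium of sprouting embryoid bodies (EBs) was profiled by RNA-Seq in 4 libraries, out of 13 in the whole series, and these 4 libraries are compared here in both directions over all genes. EBs are aggregates of differentiating mouse embryonic stem cells (mESCs) from which vessels grow into a collagen I gel. Libraries labelled Apln sense, called STOP here after the study, came from mESCs that carry a splice acceptor in sense in the Apelin gene, Apln, grown as EBs with VEGF at 30 ng/ml and the solvent DMSO (n = 2). Libraries labelled Apln anti-sense, called GO, came from sister mESCs in which Cre had turned the splice acceptor to antisense, grown as EBs with VEGF at 30 ng/ml and Apelin at 1000 nM (n = 2). Both groups were female cells on a mixed C57BL/6x129 background, derived from haploid mESCs, and both were sorted for CD31. Trap orientation, exposure to Cre and added Apelin differ together between the groups and cannot be told apart. The labels give the orientation and not the added agent, which was taken from the study's legends. The legend of a growth curve uses the names STOP and GO the other way round, and the names here follow the legend of the gene trap, in which GO is the repaired locus. Nothing says whether the 2 libraries of a group came from separate cultures, so p-values measure the spread between these libraries, which may be technical.

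Apelin is a secreted peptide that signals through the receptor Aplnr, which is carried by sprouting and venous endothelial cells (ECs). VEGF acts through receptor tyrosine kinases on ECs and drives sprouting, while ETS transcription factors such as Fli1 and Erg keep endothelial genes active. CD31, encoded by Pecam1, marks ECs and is also carried by undifferentiated mouse pluripotent cells. Female mammalian cells silence 1 of 2 X chromosomes as they differentiate, through the non-coding RNA Xist.

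Values are HTSeq read counts per gene, given as CPM, that is counts scaled to a common library size by the TMM method. Between 12327030 and 16804071 reads were assigned to genes in each library, so that 3 counts, used here as the floor of detection, equal 0.179 to 0.243 CPM (counting error only). Of 24421 listed genes, 14557 passed the filter on low counts and were tested with edgeR's quasi-likelihood test. A gene was called when its Benjamini-Hochberg adjusted p was under 0.05 and its log2 fold change, STOP over GO, was beyond 1 in either direction. By this rule 441 genes were lower in STOP (3.03% of those tested) and 124 were higher (0.852%). These counts rest on single libraries, with 136 lower and 12 higher without STOP replicate 1, 135 and 19 without GO replicate 1 and 546 and 341 without GO replicate 2. In bulk libraries, fewer cells of a type and less RNA per cell cannot be told apart.

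The 2 directions differed in size as well as in number. Called genes that were lower in STOP had a median log2 fold change of −1.58, and 102 of them were beyond −2. Among the genes called higher the median was 1.26, and 9 were beyond 2. The median over all genes tested was 0.01. All 565 called genes had both libraries of one group above both libraries of the other, an arrangement found in 29.6% of all genes tested with STOP below GO and in 31% with STOP above GO. In the plot of fold change against level, the called lower genes reach much further from 0 than the called higher genes. The plot includes 12 called lower genes with at most 3 counts in each STOP library, whose folds are not measured values. With at least 10 CPM in the higher group, the largest log2 fold changes of called genes were −3.17 for Gria2 and 2.18 for Nlrp4c.

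**Figure D1:**
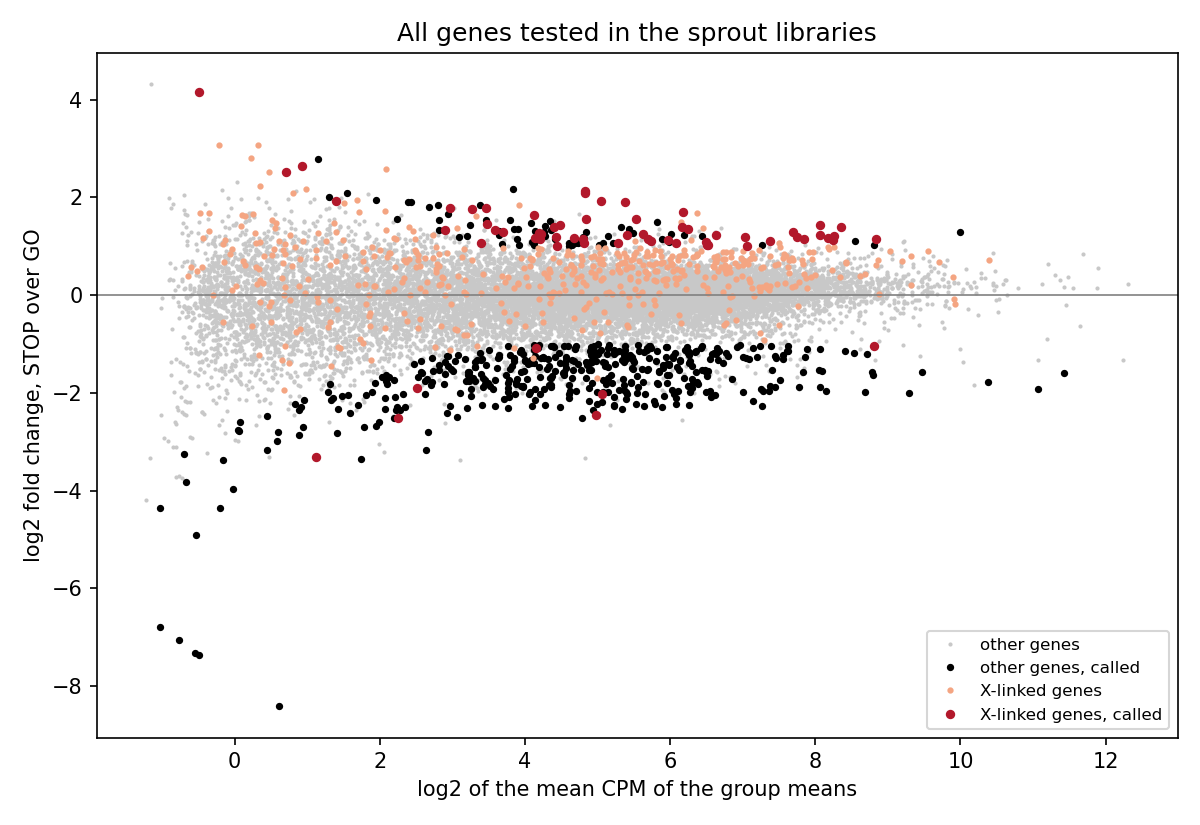
Log2 fold change, STOP over GO, of each of the 14557 genes tested (vertical axis) against the log2 of its mean CPM (horizontal axis), with called genes as larger points and X-linked genes in colour. The 441 called lower genes lie below −1 and contain 7 X-linked genes, whereas the 124 called higher genes contain 57.

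Endothelial identity genes were lower in STOP almost without exception. Of 18 endothelial markers tested, 17 were called lower (94.4%, against 3.03% of all genes) and their median log2 fold change was −1.89, against 0.01 over all genes. Without GO replicate 1 the count was 11. Tie1, an orphan receptor kinase of the vessel wall, stood at 46.1 and 60.5 CPM in the STOP libraries and at 269.2 and 240.4 CPM in the GO libraries. Cdh5, the cadherin of endothelial junctions, stood at 122.0 and 212.4 CPM in STOP and at 681 and 634 CPM in GO. For both genes the groups were far from overlapping, and GO was 4.79-fold higher for Tie1 (adjusted p = 0.00242, edgeR) and 3.94-fold higher for Cdh5 (adjusted p = 0.0173, edgeR).

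The VEGF receptors on the marker list, Kdr and Flt1, were called lower by 1.95 and 1.73 on the log2 scale. Kdr, the main signalling receptor for VEGF, had 97.6 and 135 CPM in STOP and 495 and 403 CPM in GO. Plvap, a component of endothelial diaphragms, and Tek, the receptor of the angiopoietins, were also called lower, with log2 fold changes of −1.91 and −1.84. Emcn, an endothelial sialomucin, showed the largest difference of the list at −2.50, from 2.23 and 2.77 CPM in STOP to 14.9 and 13.5 CPM in GO.

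The exception was Pecam1, which encodes the sort marker itself. It had 139 and 169 CPM in STOP and 264 and 273 CPM in GO. Its log2 fold change was −0.80 ± 0.15 (SE; adjusted p = 0.0244, edgeR), so it passed on p and stayed short of the fold threshold. The summed level of all 18 markers was 886 and 1194 CPM in STOP against 3522 and 3333 CPM in GO. The plot of single markers shows Pecam1 as the one open point among 17 filled ones.

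**Figure D2:**
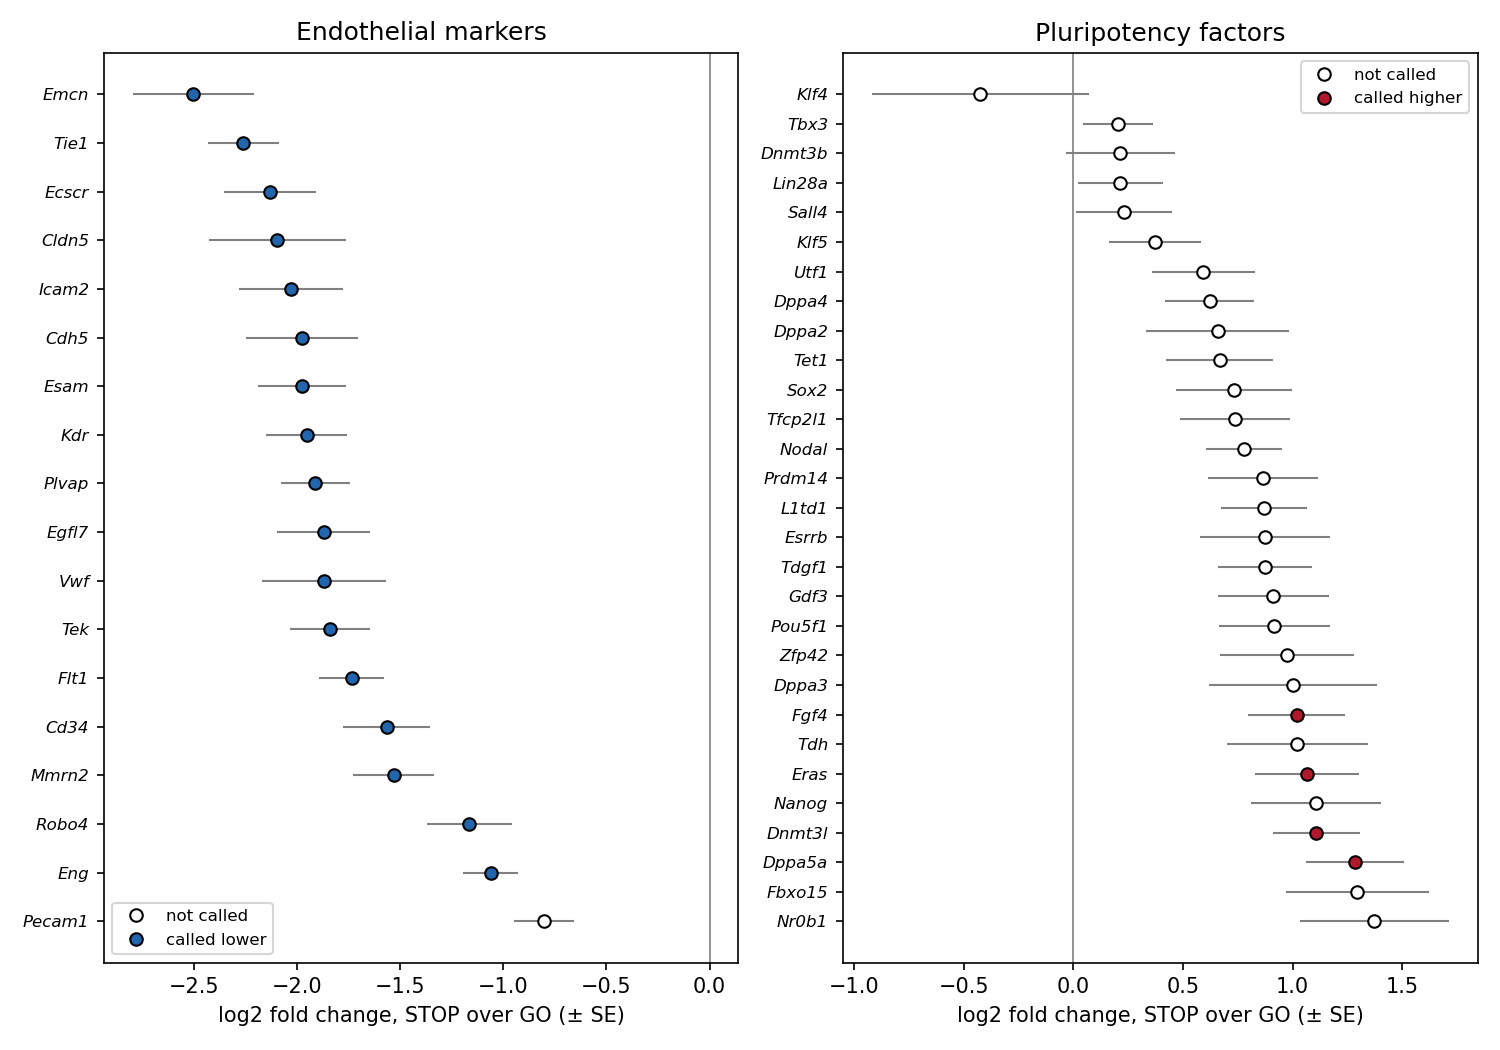
Log2 fold change, STOP over GO, with its standard error for each endothelial marker (left) and for 29 of the 30 pluripotency factors (right), with filled points for called genes. On the left all 18 points lie below 0 and 17 are called, while on the right 28 of 29 points lie above 0 and 4 are called. The pluripotency factor that is not shown is among the 5 called higher.

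Transcription factors of endothelial and early blood cells were the next group, with 16 of 25 called lower (64.0%, against 3.03% of all genes, and 10 without GO replicate 1) and a median of −1.66 on the log2 scale. Fli1, an ETS factor, had 15.2 and 18.2 CPM in STOP and 69.2 and 66.9 CPM in GO. Erg, the ETS factor most restricted to endothelium, had 8.94 and 11.1 CPM in STOP and 48.1 and 54.1 CPM in GO, a 5.11-fold difference. Tal1, a basic helix-loop-helix factor of blood and endothelial progenitors, had 9.35 and 6.92 CPM in STOP and 44.8 and 48.8 CPM in GO, which was 5.73-fold. The replicates of each group were close together for all 3 factors (adjusted p = 0.00242 for each, edgeR).

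Hey1, a target of Notch signalling, and Bcl6b, a repressor found in ECs, were called lower with log2 fold changes of −1.79 and −1.95. Elk3 and Ets1, further ETS factors, were called lower at −1.55 and −1.88. Sox7 had a log2 fold change of −1.99 that did not pass the test, and Klf2, a factor induced by flow, was the only one of the 25 with a positive value, 0.56, and was not called.

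Called lower genes were then examined for a short ETS motif before their start sites. The letters AGGAAG were searched on both strands in the 250 bases before the first listed start of each gene, in promoter windows from RefSeq on GRCm38.p6. Windows were matched for 313 of the 441 called lower genes, for 90 of the 124 called higher genes and for 10967 of the 14557 tested genes. The motif was found in 35.5% of the called lower genes, in 26.7% of the called higher genes and in 27.4% of all tested genes. It was also found in 32.3% of the 446 X-linked tested genes with a window. The GATA motif AGATAA was found in 7.99%, 5.56% and 5.67% of the same 3 sets and in 9.19% of the X-linked tested genes, above the called lower genes. Neither motif was tested. A match is only a match of letters.

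Windows of 4 called lower genes are shown as examples of the motif and were chosen because they hold it. The genes encode an endothelial receptor, a scavenger receptor, a regulator of small GTPases and a sialomucin. Each runs 5′ to 3′ along the gene and ends at the base before the first listed start. AGGAAG or its reverse complement is in capitals. For Stab1 and Emcn that listed start lies inside the full span of the gene, so the window overlaps the span. The windows are chr4:118489850-118490099 on the minus strand for Tie1, chr14:31168642-31168891 on the minus strand for Stab1, chr7:45627287-45627536 on the plus strand for Rasip1 and chr3:137340828-137341077 on the plus strand for Emcn. Tie1, Stab1 and Rasip1 hold 1 match each and Emcn holds 2.
Tie1: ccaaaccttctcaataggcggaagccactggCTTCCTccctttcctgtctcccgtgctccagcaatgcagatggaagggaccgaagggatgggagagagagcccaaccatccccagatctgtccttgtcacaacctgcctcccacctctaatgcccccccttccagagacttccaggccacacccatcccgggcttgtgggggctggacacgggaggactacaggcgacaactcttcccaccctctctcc
Stab1: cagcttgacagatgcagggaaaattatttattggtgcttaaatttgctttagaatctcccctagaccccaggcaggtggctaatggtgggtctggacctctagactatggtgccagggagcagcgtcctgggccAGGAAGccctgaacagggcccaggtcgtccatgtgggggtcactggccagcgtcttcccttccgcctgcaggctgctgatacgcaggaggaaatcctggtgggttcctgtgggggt
Rasip1: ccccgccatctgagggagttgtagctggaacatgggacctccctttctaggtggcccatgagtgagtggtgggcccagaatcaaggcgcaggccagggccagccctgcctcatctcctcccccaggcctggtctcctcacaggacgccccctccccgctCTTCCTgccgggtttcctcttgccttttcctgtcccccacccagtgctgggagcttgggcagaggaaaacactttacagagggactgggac
Emcn: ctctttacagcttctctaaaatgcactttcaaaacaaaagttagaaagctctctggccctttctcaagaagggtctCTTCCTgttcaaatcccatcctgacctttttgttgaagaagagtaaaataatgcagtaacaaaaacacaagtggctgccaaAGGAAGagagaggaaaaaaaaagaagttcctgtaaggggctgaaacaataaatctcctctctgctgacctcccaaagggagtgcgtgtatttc

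Of 28 receptors and ligands of ECs, 15 were called lower (53.6%, against 3.03% of all genes, and 9 without GO replicate 1), with a median of −1.38 on the log2 scale. Flt4, the receptor for VEGF-C, had 50.1 and 57.8 CPM in STOP and 184 and 169 CPM in GO. Plxnd1, a semaphorin receptor, was the most abundant called member, at 211 and 291 CPM in STOP and 1134 and 874 CPM in GO. GO was 3.28-fold higher for Flt4 and 4.00-fold higher for Plxnd1, and neither gene overlapped between groups. Pdgfb, the growth factor by which ECs recruit pericytes, and Ramp2, the partner of the adrenomedullin receptor, were called lower by 1.42 and 1.34 on the log2 scale, and Adgrf5, an adhesion receptor, by 1.53. Notch1, Notch4 and Ephb4 lay at −0.92, −0.82 and −0.75 and were not called. All 3 passed on adjusted p and stayed short of the fold threshold.

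The Apelin axis itself divided. Aplnr had 15.6 and 10.4 CPM in STOP and 73.6 and 50.1 CPM in GO, and was called lower with a log2 fold change of −2.25 ± 0.27 (SE; adjusted p = 0.00999, edgeR). Apln had 66.1 and 80.2 CPM in STOP and 58.2 and 65.9 CPM in GO, a log2 fold change of 0.24 ± 0.16 (SE; adjusted p = 0.367, edgeR). Apln, the target of the trap, was at no lower level in libraries labelled Apln sense. Apela, the second ligand of the receptor, had 41.9 and 29.8 CPM in STOP and 25.1 and 35.0 CPM in GO, and its groups overlapped (log2 fold change 0.26, adjusted p = 0.516, edgeR). Apln lies at chrX:48025146-48034853 on the minus strand of GRCm38 and has 3 exons in GENCODE M21. The study placed the trap between exons 1 and 2, that is in intron 1 at chrX:48028466-48034438. Counts per gene do not separate reads from either side of the trap.

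Regulators of small GTPases, which shape junctions and the cytoskeleton of ECs, had 10 of 20 members called lower (50.0%, against 3.03% of all genes) and a median of −1.08 on the log2 scale. Arap3, which had the lowest p of all genes, stood at 47.3 and 55.8 CPM in STOP and at 245 and 217 CPM in GO. Rasip1, which is needed for vessel lumens, stood at 38.0 and 35.4 CPM in STOP and at 125 and 118 CPM in GO. Rasgrp3, Arhgef15 and Fgd5, activators of small GTPases, were called lower by 1.99, 1.70 and 1.82 on the log2 scale. Krit1, Ccm2 and Dock6 lay between −0.38 and −0.07 and were not called.

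Of 12 scavenger receptors and lectins tested, 3 were called lower (25%, against 3.03% of all genes). Over the 13 alternatives this count ran from 1 to 7. Stab1, which clears modified lipoproteins and matrix fragments, had 23.3 and 30.2 CPM in STOP and 133 and 119 CPM in GO, which was 4.73-fold. Scarf1 and Cd93 followed at −1.53 and −1.96. Clec14a and Lyve1 had log2 fold changes of −2.04 and −2.21 that did not pass the test.

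Of 18 genes known from endothelial tip cells, 4 were called lower (22.2%, against 3.03% of all genes), namely Kcne3, Mcam, Pxdn and Nid1. Kcne3, a potassium channel subunit, had 5.21 and 8.31 CPM in STOP and 33.8 and 30.5 CPM in GO. Pxdn and Nid1, which belong to basement membranes, were lower by 1.26 and 1.21 on the log2 scale. Without GO replicate 1 only 1 of the 18 was called, and without STOP replicate 2 there were 13, so the count of tip cell genes rests on single libraries.

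Other called lower genes were outside these lists. Klhl6, Prkch, Ptprb and Dusp2 were among the 15 with the lowest p, with log2 fold changes of −2.19, −1.94, −1.95 and −2.33. Ptprb is the endothelial phosphatase that acts on Tek, and Dusp2 is a phosphatase of MAP kinases. Asb4, Shank3 and Zfp711 were also among the 15 and lower by 2.22, 1.69 and 2.03 on the log2 scale. Zfp711 is X-linked, with 13.41 and 12.95 CPM in STOP and 55.8 and 51.8 CPM in GO. Gria2, a glutamate receptor subunit, and Slc18a2, a vesicular monoamine transporter, had the largest differences among called lower genes with at least 10 CPM in GO, at 8.97-fold and 7.0-fold. Without STOP replicate 2 the log2 fold change of Gria2 went from −3.17 to −3.78, and with rounded RSEM expected counts that of Slc18a2 went from −2.81 to −1.85. The plot of the 15 genes in each direction shows their CPM in each library, and genes were taken for it only where the groups did not overlap.

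**Figure D3:**
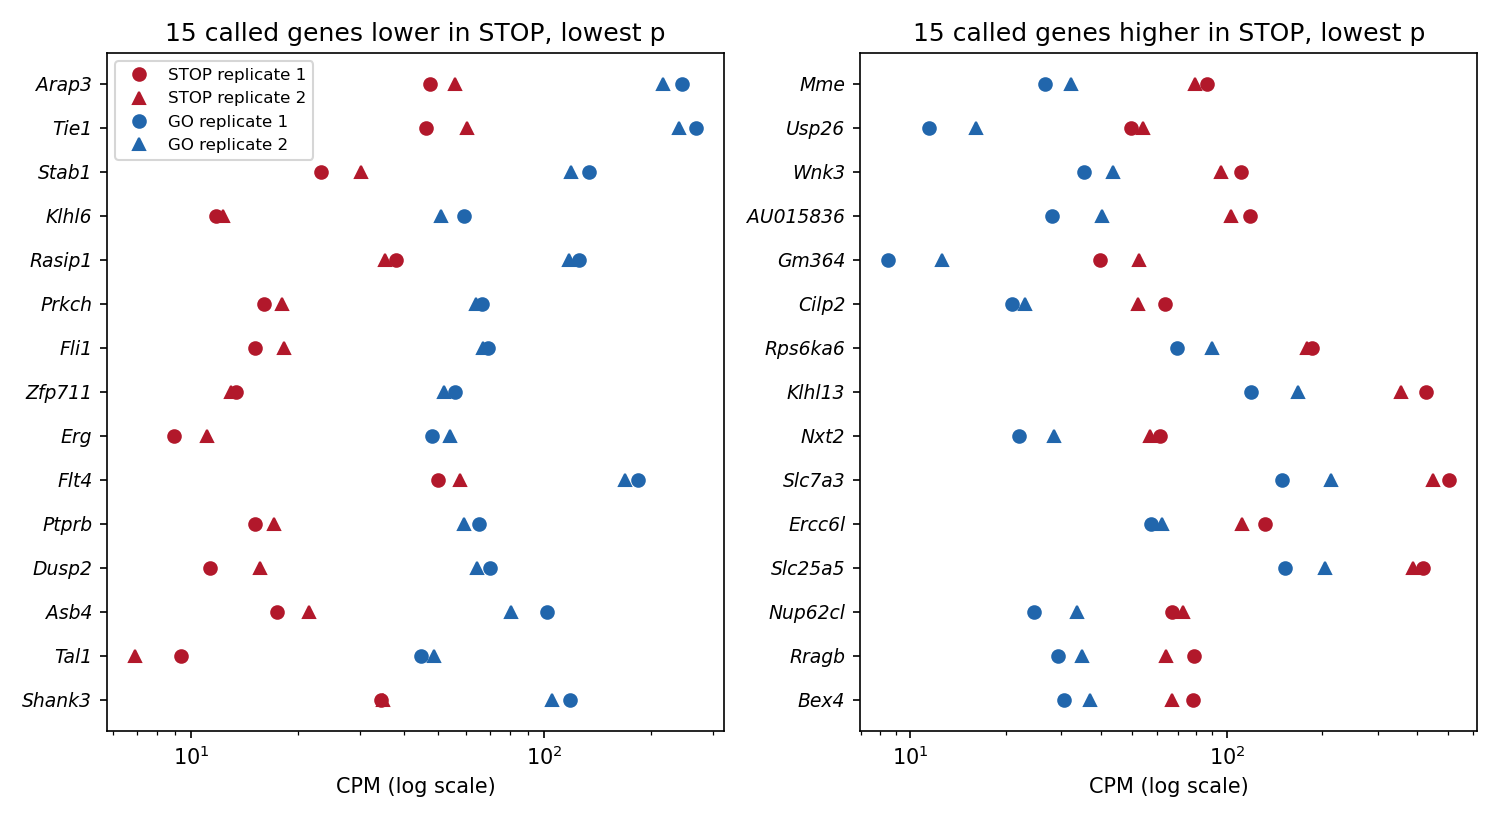
CPM on a log axis of the 15 called genes with the lowest p in each direction, with red points for the 2 STOP libraries and blue points for the 2 GO libraries. The groups of all 30 genes are apart because genes were chosen that way. The choice by p and fold also favoured a wide distance between the groups, so the plot shows levels only.

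At the floor of detection, 12 called lower genes had at most 3 counts in each STOP library, and among them were the secreted factors Shh and Wnt1 and the immune receptor chain Fcer1g. No fold is given for them. A single called higher gene, Gm7173, had at most 3 counts in each GO library.

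X-linked genes took a larger share of the genes called higher in STOP than of the genes tested. Positions were matched for 14519 tested genes on the autosomes and the X chromosome, of which 561 (3.86%) were X-linked. Of the 124 called higher genes, 57 (46.0%) were X-linked, so that 10.2% of X-linked genes and 0.480% of autosomal genes were called higher. Of the 441 called lower genes 7 were X-linked, which was 1.25% of X-linked genes against 3.11% of autosomal genes. The grouping by chromosome was chosen after the values were seen, and no test was made of it. The count of 57 became 9 without STOP replicate 1, 15 without GO replicate 1 and 92 without GO replicate 2.

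The shift was shared by most X-linked genes and was not limited to those called. The median log2 fold change of the 561 genes was 0.60, or 1.51-fold, and 81.8% of them had a positive value. On single autosomes the medians ran from −0.09 on chromosome 3 to 0.07 on chromosome 8. Both STOP libraries lay above both GO libraries in 67.7% of X-linked genes and in 29.6% of autosomal genes. X-linked genes took 4.98% and 4.66% of the counts in STOP and 3.33% and 3.45% in GO. The 2 GO libraries were thus close to each other and below both STOP libraries.

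The median of each stretch of the chromosome was positive. When the X-linked genes were divided in order of position into 10 parts of 56 or 57 genes, the medians lay between 0.40 and 0.77. By level, the median was 0.60 in the 187 X-linked genes with the lowest mean CPM, 0.51 in the middle 187 and 0.65 in the 187 with the highest. It lay between 0.55 and 0.66 under all 13 alternatives, with the lowest value without STOP replicate 1 and the highest without GO replicate 2. The plot of medians by chromosome shows X apart from the 19 autosomes.

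**Figure D4:**
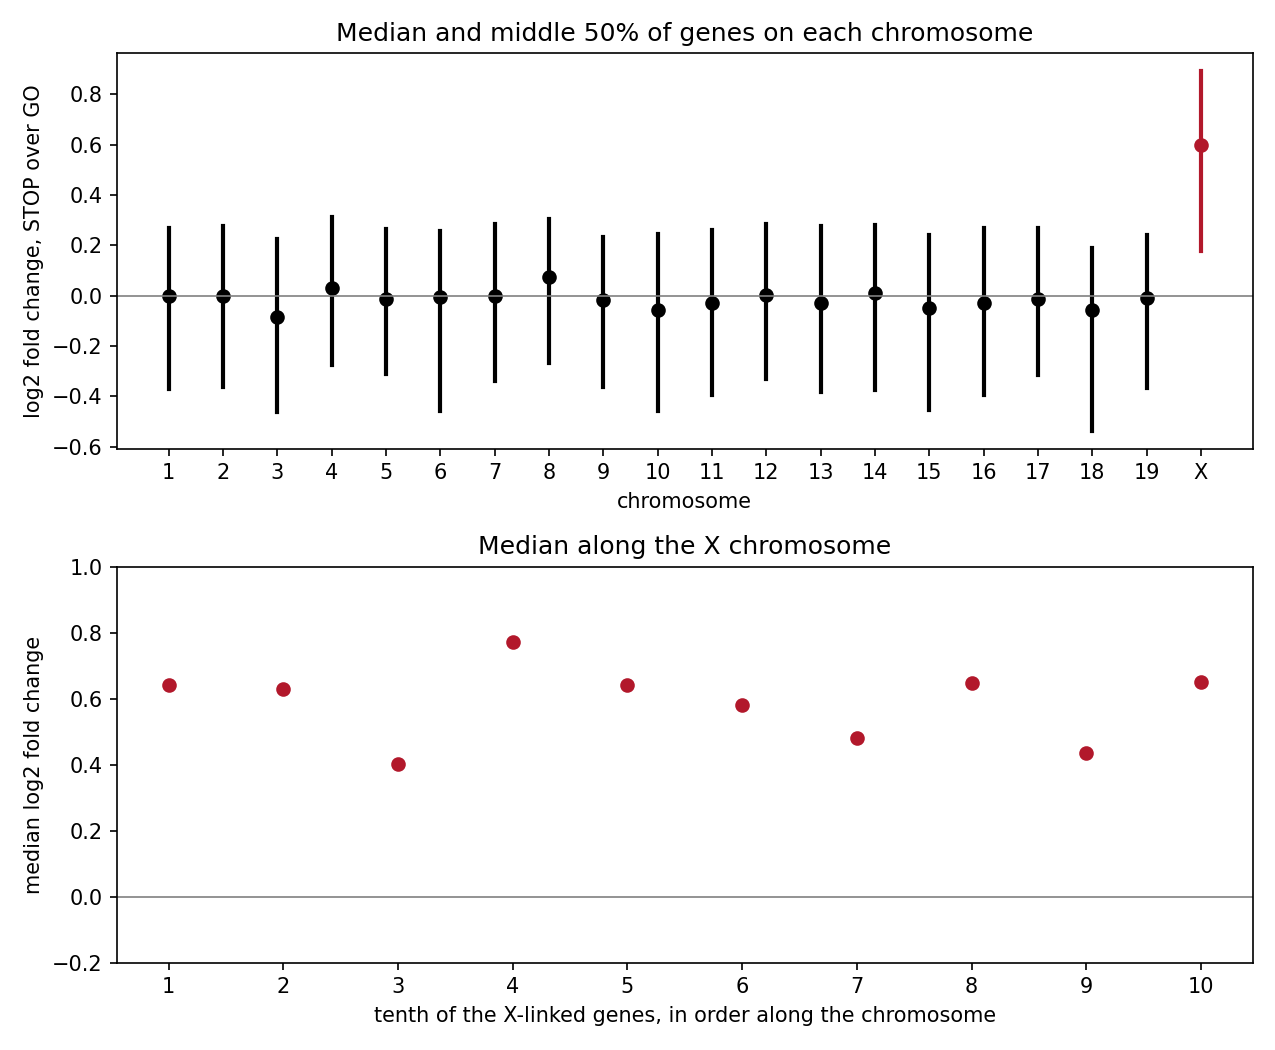
Upper panel: median (points) and middle 50% (lines) of the log2 fold change, STOP over GO, of the tested genes on each chromosome, with X in red. Lower panel: medians in 10 consecutive parts of the X-linked genes, which run from 0.40 to 0.77 and all lie above 0.

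Usp26, a deubiquitinase gene active in the testis, had the lowest p of the X-linked genes called higher, at 49.8 and 54.5 CPM in STOP and 11.4 and 16.1 CPM in GO (3.79-fold, adjusted p = 0.00475, edgeR). Klhl13, a substrate adaptor of a ubiquitin ligase, had 425 and 356 CPM in STOP and 119 and 168 CPM in GO (2.72-fold). Slc7a3, a transporter of cationic amino acids, had 505 and 447 CPM in STOP and 149 and 213 CPM in GO (2.63-fold). The groups did not overlap in any of the 3, which the choice of these genes required. Wnk3, AU015836, Gm364, Rps6ka6, Nxt2, Ercc6l, Slc25a5, Nup62cl, Rragb and Bex4 were the other X-linked genes among the 15 with the lowest p, with log2 fold changes from 1.02 for Ercc6l to 2.14 for Gm364.

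Some X-linked genes that most cells express are given as examples, picked after their values were seen. Hprt, an enzyme of purine salvage, had 414 and 398 CPM in STOP and 174 and 238 CPM in GO, with a log2 fold change of 0.98 (adjusted p = 0.0222, edgeR). Pgk1, an enzyme of glycolysis, had 194 and 165 CPM in STOP and 93.4 and 105 CPM in GO, with a log2 fold change of 0.86. Kdm5c, a histone demethylase, lay at 0.65, and all 3 genes passed on adjusted p and stayed short of the fold threshold. Ogt, which attaches sugar to nuclear proteins, lay at 0.21 with adjusted p = 0.557 (edgeR).

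Xist had 147 and 179 CPM in STOP and 194 and 96.4 CPM in GO, so its groups overlapped (adjusted p = 0.812, edgeR). Of 4 Y-linked genes, Kdm5d, Ddx3y and Uty had 0 counts in every library and Eif2s3y had 1 count in all. The number of X chromosomes per cell was not tested. Apln is X-linked too, and its log2 fold change was 0.36 below the median of X-linked genes, with 29.6% of these genes below it. Only 7 X-linked genes were called lower, namely Zfp711, Klhl4, Msn, Alas2, Mamld1, Arhgap6 and Dgkk. Msn, which ties actin to the cell membrane, was the most abundant of them, at 267 and 322 CPM in STOP and 674 and 537 CPM in GO.

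The other 67 called higher genes were not X-linked. Their median log2 fold change was 1.28, beside 1.26 for the 57 X-linked ones. Mme, a membrane peptidase, had the lowest p of all called higher genes, with 86.8 and 79.6 CPM in STOP and 26.5 and 32.3 CPM in GO (2.83-fold, adjusted p = 0.00472, edgeR). Cilp2 had 63.8 and 52.3 CPM in STOP and 20.9 and 23.1 CPM in GO. Mt1, a metallothionein, was among the most abundant, at 632 and 572 CPM in STOP and 237 and 356 CPM in GO. This count was less stable than that of X-linked genes, with 3 without STOP replicate 1, 4 without GO replicate 1 and 249 without GO replicate 2.

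Most pluripotency factors had positive values. Of 30 tested, 5 were called higher (16.7%, against 0.852% of all genes), 29 had a positive log2 fold change and the median was 0.87. At an unadjusted p under 0.05, 22 of the 30 were higher, against 12.4% of all genes tested. Dppa5a, an RNA-binding protein of stem cells, had 1438 and 1444 CPM in STOP and 461 and 723 CPM in GO (2.43-fold, adjusted p = 0.0227, edgeR). Dnmt3l, a cofactor of DNA methylation, had 509 and 516 CPM in STOP and 192 and 284 CPM in GO. Both groups were separate for both genes, and GO replicate 2 lay nearer to STOP than GO replicate 1 did.

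Eras, a small GTPase of stem cells, and Fgf4, a growth factor, were also called, with log2 fold changes of 1.06 and 1.02. Of the 3 X-linked members 2 were called, where 10.2% of all X-linked genes were called higher. Of the 27 others 3 were called, where 0.480% of autosomal genes were. The core factors Pou5f1, Nanog and Sox2 were not called. Nanog had 797 and 840 CPM in STOP and 266 and 495 CPM in GO, with a log2 fold change of 1.11 ± 0.30 (SE; adjusted p = 0.0905, edgeR). Pou5f1 and Sox2 lay at 0.92 and 0.73, with adjusted p = 0.0867 and 0.151 (edgeR). The count of 5 became 0 without STOP replicate 1 and without GO replicate 1, 3 without STOP replicate 2 and 20 without GO replicate 2.

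Pluripotency factors were abundant in all 4 libraries of cells sorted as endothelial. Their summed level was 10163 and 9391 CPM in STOP and 4240 and 6472 CPM in GO. These sums cover 30 genes and are not comparable with those of the 18 endothelial markers. The summed levels of endothelial and pluripotency genes moved in opposite directions between the groups, and the part of either in the calls was not tested.

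Genes of the germ line had 8 of 25 members called higher (32.0%, against 0.852% of all genes) and a median of 0.90 on the log2 scale. Of the 8, Usp26, Rhox9, Tex11, Xlr3a and Taf7l are X-linked. Hormad1, a protein of meiotic chromosome axes, had 31.0 and 29.4 CPM in STOP and 9.09 and 13.9 CPM in GO. Sycp1, of the synaptonemal complex, and Tdrd12, of the piRNA pathway, were called higher by 1.17 and 1.21 on the log2 scale. Of 19 members that are not X-linked 3 were called, and of 6 X-linked members 5 were, where 10.2% of all X-linked genes were called higher. Dazl and Ddx4, which mark germ cells proper, had log2 fold changes of 0.03 and 0.33 and were not called. The count of 8 became 2 without STOP replicate 1, 4 without STOP replicate 2, 1 without GO replicate 1 and 13 without GO replicate 2.

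Members of 3 gene families with roles in the germ line were also examined, picked after values were seen. Of 7 Nlrp genes tested 4 were called higher, against 0.852% of all genes. Nlrp4c had the largest fold among called higher genes with at least 10 CPM in STOP, at 4.53-fold. It had 3.24 and 7.18 CPM in GO and 18.9 and 27.9 CPM in STOP. Its call was kept in 7 of 12 alternatives and was lost without GO replicate 1 and without either STOP replicate, while its log2 fold change went from 2.18 to 2.85 without GO replicate 2. Of 5 Rhox homeobox genes 3 were called higher, against 0.852% of all genes and 10.2% of X-linked genes. Rhox1, which is X-linked like Rhox9, had 60.5 and 70.8 CPM in STOP and 11.9 and 23.2 CPM in GO. Of 10 Mage genes 1 was called higher, against 0.852% of all genes and 10.2% of X-linked genes. Among these 10, 5 had a positive log2 fold change and the median was −0.06. Near-identical copies in these families make their counts uncertain, because reads with several alignments were left out.

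Imprinted genes held the most abundant called lower genes. Of 27 tested, 5 were called lower (18.5%, against 3.03% of all genes), or 2 without STOP replicate 1 and 3 without GO replicate 1. Mest had 1150 and 1595 CPM in STOP and 4772 and 3483 CPM in GO, and Igf2, a growth factor of the embryo, had 665 and 1132 CPM in STOP and 4092 and 2681 CPM in GO. Meg3 and Rian, non-coding RNAs of the same cluster, were lower by 1.56 and 1.10 on the log2 scale, and Plagl1, a zinc finger factor, by 1.87. H19, the neighbour of Igf2, lay at −1.34 and was not called. Vim, an intermediate filament of mesenchymal and endothelial cells, was also abundant and called lower, at 418 and 785 CPM in STOP and 2298 and 1815 CPM in GO. The calls of Igf2 and Vim were each kept in 7 of 12 alternatives. Those of Mest, Rian, Plagl1 and Meg3 were kept in 10, 9, 11 and 11.

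Cell cycle genes had 0 of 23 members called with edgeR or DESeq2, and all 23 had a positive log2 fold change, the median being 0.47. At an unadjusted p under 0.05 in edgeR, 20 of them were higher, against 12.4% of all genes. Rrm2, a subunit of ribonucleotide reductase, had the lowest p, at 251 and 211 CPM in STOP and 111 and 131 CPM in GO (log2 fold change 0.93, adjusted p = 0.0173, edgeR). Immediate-early genes had 20 of 20 negative values, a median of −1.21 and 0 members called in edgeR, with 8 lower at an unadjusted p under 0.05 against 14.3% of all genes, and with 5 called lower by DESeq2. Their summed level was 1673 and 1945 CPM in STOP, 5522 CPM in GO replicate 1 and 2290 CPM in GO replicate 2, so that GO replicate 1 stood apart. Without GO replicate 1 the median was −0.38.

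Of 18 blood cell markers tested, 4 were called lower (22.2%, against 3.03% of all genes), or 2 without GO replicate 2, 0 without GO replicate 1 and 6 with DESeq2. Their median was −1.79 on the log2 scale, 15 of 18 values were negative, and 12 were lower at an unadjusted p under 0.05 (14.3% of all genes). Several defining genes were close to the floor. Runx1, the factor of emerging blood cells, had 8.80 and 10.6 CPM in STOP and 37.1 and 25.1 CPM in GO. The embryonic globin Hbb-bh1 had 32.1 and 9.21 CPM in STOP and 78.9 and 167 CPM in GO, with a log2 fold change of −2.56 that did not pass the test (adjusted p = 0.222, edgeR). The adult globins Hba-a1 and Hbb-bt had 0 counts in all 4 libraries, and Ptprc, the common leukocyte marker, had from 0 to 12 counts. The summed level of the whole list was 259 and 191 CPM in STOP and 475 and 622 CPM in GO.

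Markers of mesenchymal cells followed the library and not the group. Their summed level was 542 CPM in STOP replicate 1 and 3180 CPM in STOP replicate 2, and 3336 CPM in GO replicate 1 and 765 CPM in GO replicate 2. Col1a1, the main fibrillar collagen, had 270 and 1367 CPM in STOP and 1588 and 306 CPM in GO. Of the 13 tested members 0 were called in edgeR or DESeq2, where edgeR called 3.03% of all genes lower and 0.852% higher. At an unadjusted p under 0.05 in edgeR 0 passed, where 14.3% of all genes were lower and 12.4% higher. Mural cell markers showed the same order of libraries, with summed levels of 283 and 472 CPM in STOP and 707 and 310 CPM in GO, with 0 of 10 members called in edgeR or DESeq2 and 0 at an unadjusted p under 0.05 in edgeR. The part of these cells in the calls was not tested.

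Among the remaining cell types, 3 of 13 endoderm markers (23.1%) and 2 of 11 cardiomyocyte markers (18.2%) were called lower, against 3.03% of all genes, and these became 1 and 0 without STOP replicate 1 or without GO replicate 1 (1 endoderm marker also without STOP replicate 2). Gata4, shared by endoderm and heart, had 18.96 and 27.54 CPM in STOP and 115 and 79.8 CPM in GO. Tnnt2, of the heart sarcomere, had 2.78 and 7.01 CPM in STOP and 20.9 and 21.6 CPM in GO. Values were negative for 10 of the 13 endoderm markers and 8 of the 11 cardiomyocyte markers. Myl7, also of the heart, had 14.4 and 12.6 CPM in STOP and 7.61 and 8.72 CPM in GO. Its log2 fold change was 0.73 and it was not called. Of 10 neural markers, Tubb3 was called higher (10%, against 0.852% of all genes; 0 without STOP replicate 1 or GO replicate 1, 3 without GO replicate 2), with 120 and 122 CPM in STOP and 42.8 and 62.1 CPM in GO. Neural markers were mixed, with 4 negative and 6 positive values, and with 1 called lower and 1 called higher by DESeq2. At an unadjusted p under 0.05 in edgeR 2 were lower and 3 higher. Nes, the most abundant neural marker, lay at −1.42 and was not called (adjusted p = 0.101, edgeR). Epithelial markers had 0 of 12 called in edgeR, with 5 higher at an unadjusted p under 0.05 and 1 called higher by DESeq2. Cdh1, which pluripotent cells also carry, had a log2 fold change of 0.75 (adjusted p = 0.0471, edgeR). Of 18 p53 targets, 12 had a positive value and the median was 0.27 on the log2 scale, with 7 higher and 1 lower at an unadjusted p under 0.05. Plk2 alone was called, lower at −1.53 (0 called without GO replicate 1), and 1 of 18 is 5.56%, against 3.03% of all genes. Interferon-stimulated genes, hypoxia response genes and epiblast and primitive streak genes had 0 of 18, 0 of 18 and 0 of 13 members called in edgeR, and 0 each in DESeq2. At an unadjusted p under 0.05 in edgeR, where 14.3% of all genes were lower and 12.4% higher, 3 interferon-stimulated genes were lower and 1 higher. Of the 18 hypoxia response genes 1 was lower and 9 were higher at that p, 4 of them at an adjusted p under 0.05 without passing the fold, and 14 had a positive value. Of the epiblast and primitive streak genes 0 were lower and 3 higher. The plot of lists by library sets these groups side by side.

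**Figure D5:**
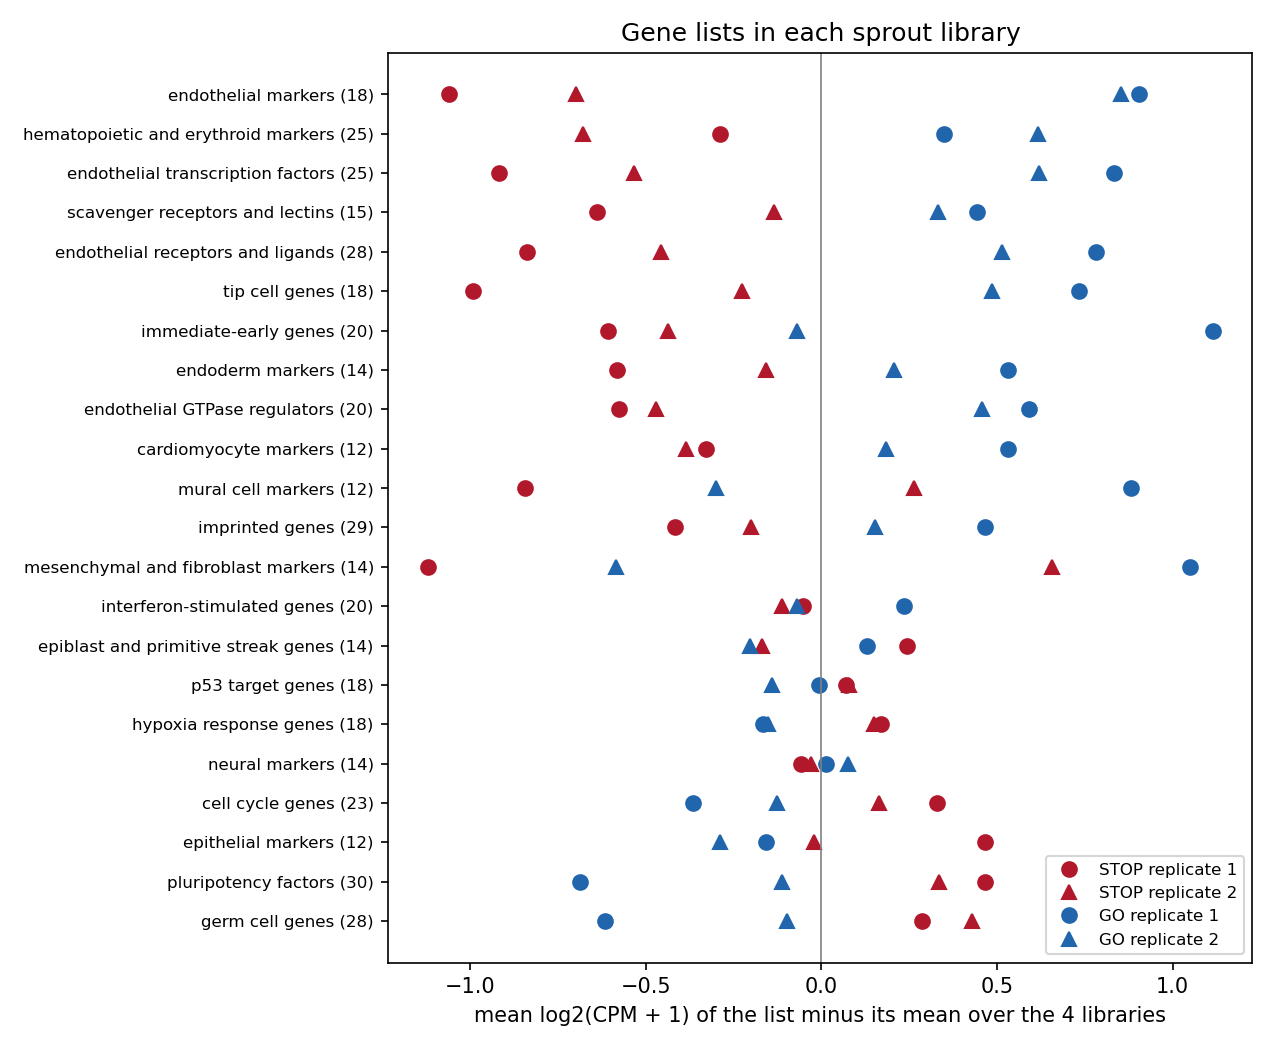
Mean log2(CPM + 1) over the listed members of each gene list in each library, less the mean over the 4 libraries, with the number of members in brackets, red for STOP and blue for GO. Endothelial lists have both STOP points left of both GO points, pluripotency and germ cell lists have them to the right, and for mesenchymal markers STOP replicate 2 and GO replicate 1 lie to the right.

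The series holds 1 other contrast on Apelin, in ECs sorted from E0771 mammary tumors and prepared by another protocol. Apelin was depleted in tumor cells and host together, by shApln tumor cells in Apln-/- mice (n = 3), and the comparison was with shRenilla tumor cells in wild-type mice (n = 6). The difference of the 2 contrasts was tested in 1 edgeR fit over all 13 libraries and 15762 genes. Of these genes, 1 (0.00634%) differed at an adjusted p under 0.05, namely Apln. Its log2 fold change was 0.28 in sprouts and −6.71 in tumors, a difference of 6.99 ± 0.74 (SE; adjusted p = 4.39e-04, edgeR). Of the 433 called lower and 119 called higher genes in this fit 0 differed with edgeR. At an unadjusted p under 0.05 there were 214 and 16 of them, against 4.88% of all genes in the fit, but these genes were chosen for their sprout values, which enter the difference, so nothing is read from these counts. Stab1 and Tie1 came nearest. Stab1 lay at −2.19 in sprouts and 0.95 in tumors, and Tie1 at −2.21 in sprouts and 0.38 in tumors (adjusted p = 0.0523 for the difference of each, edgeR). With DESeq2 size factors in place of TMM, both passed. In tumors the median log2 fold change was 0.14 for the 433 called lower genes and −0.55 for the 119 called higher genes. In sprouts these medians were −1.53 and 1.30 in the same fit. The sign in tumors was that of sprouts for 162 of the 433 and 35 of the 119. In the tumor contrast itself 1 gene passed at an adjusted p under 0.05 (edgeR). That 0 of the called genes differed does not show that the 2 contrasts were alike. The median log2 fold change of X-linked genes was 0.63 in sprouts and −0.14 in tumors in this fit.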

How the data were processed

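RNA-Seq was measured in CD31+ cells sorted from sprouting EBs. Polyadenylated RNA was sequenced as 50-base single-end reads. The authors aligned the reads with STAR 2.5.0a, counted them with HTSeq 0.6.1p1 and deposited whole-number counts without normalization, beside RSEM 1.2.25 expected counts and TPM for the same libraries. For the tumor libraries the authors deposited featureCounts read counts. The build is mm10, so that RefSeq and GENCODE positions on GRCm38 apply. The 5 closing tallies of unassigned reads were left out, and reads with several alignments, 42.6% to 49.6% of those tallied, were not counted.

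Counts were filtered (filterByExpr, minimum count 10), scaled by TMM and tested in R 4.3.3 with edgeR 4.0.16 (robust quasi-likelihood fit, Benjamini-Hochberg adjustment over all genes tested). Following the study's methods, calls needed an adjusted p under 0.05 with a log2 fold change beyond 1. Standard errors were derived from the quasi-likelihood F. Replicates differed by more than counting noise (chi-square divided by its degrees of freedom 18.1 in STOP, 25.9 in GO). The fit was also run on simulated counts, and no result of that run is given here. The deposited TPM were not used in any result.

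The members, the 23 gene lists and the tests were chosen with earlier results of these data known, and list members called are described without a set test. Named genes were Apln, Aplnr and Apela, the 15 called genes per direction with the lowest p whose libraries did not overlap, the 8 with the largest fold at 10 CPM or more, the 5 most abundant, up to 5 called members per list (or the 2 with the lowest p) and up to 4 abundant members of each marker list. Other genes named were chosen after their values were seen. The alternatives were DESeq2 1.42.0, DESeq2 size factors in edgeR, 2 other filters, a block for the replicate number, calls without a fold threshold, rounded RSEM expected counts and leaving out each library. Crossed blocks and TMM factors without X-linked genes were added after the values were seen. Some genes are not reported here.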

Additional observations from a re-analysis of the deposited data

Results flagged for a closer look

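The contrast of the sprout libraries and that of the tumor libraries differed for Apln, by 6.99 on the log2 scale in the test of the difference itself. Apln stood between 58.2 and 80.2 CPM in the 4 sprout libraries. Among the tumor libraries, scaled within their own set, it ranged from 2.42 to 11.8 CPM where Apelin was depleted (n = 3) and from 414 to 1011 CPM in wild type (n = 6).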

How the results depend on the processing

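The counts of calls moved with single libraries. Leaving out each library in turn gave 135 to 548 lower and 12 to 341 higher genes, 9 to 92 X-linked and 3 to 249 other genes higher, 11 to 17 endothelial markers lower and 0 to 20 pluripotency factors higher. The lowest counts came without STOP replicate 1 or GO replicate 1. No called gene changed sign in any alternative that tested it. Of the 90 named genes that were called, 24 kept the call in all 12 alternatives. With the replicate number as a block, 41 lower genes were called, all among the 441, and 3 higher genes, of which 2 were among the 124. The 3 were X-linked and 0 others were called, with 9 endothelial markers and 0 pluripotency factors. The labels do not say that a number marks a shared culture, and same-numbered libraries deviated in opposite directions (correlation −0.43 across genes). Crossed pairing, chosen after seeing the data, gave 933 lower and 302 higher genes, 88 X-linked and 214 others. The block and each of these settings left the median of X-linked genes positive. Higher genes numbered 198 with DESeq2 (128 not X-linked), 222 without a filter (140 not X-linked) and 279 on adjusted p alone (147 X-linked and 132 others), and 9 pluripotency factors were called with DESeq2. Rounded RSEM expected counts gave 43 higher genes that are not X-linked. Lower genes numbered 628 with DESeq2, 632 without a filter and 626 on adjusted p alone. The difference between sprouts and tumors held for 3 genes with DESeq2 size factors. With single libraries left out, the median log2 fold change of mesenchymal markers ranged from −2.02 to 0.99 and that of Col1a1 from −1.84 to 1.42. A lone library was taken to vary like the other group. The causes were not tested.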
